A study of Mus musculus with 14 samples.

Results

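Young L1 elements are the LINE1 retrotransposons that can still copy themselves in the mouse, and L1Md_T and L1Md_A are 2 of their subfamilies. The copies described here are the annotated L1Md_T and L1Md_A rows whose end minus start is under 1000 bp in the deposited coordinates (starts counted from 0, printed here from 1), which are far shorter than an intact element. They number 24728, of which 14277 are L1Md_T and 10451 are L1Md_A, among 40532 rows of both subfamilies and 3725827 rows of transposable element (TE) copies in all. The question was what RNA was counted on these short rows in germ cells that lack the DNA methyltransferase DNMT3C, as far as it can be told apart from that of the longer elements.

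An intact L1 starts with a 5′ promoter, continues with 2 open reading frames (ORF1, an RNA-binding protein, and ORF2, an endonuclease and reverse transcriptase) and ends in a poly(A) tail. Reverse transcription starts at the 3′ end of the RNA and often stops early, so that most L1 insertions are truncated at the 5′ end and carry no promoter. In fetal male germ cells the piRNA pathway directs DNMT3C to the promoters of young retrotransposons, whose methylation keeps them silent in later spermatogenesis. A copy without a promoter can still be found in RNA when it lies in the transcript of a gene or downstream of another element.

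Polyadenylated RNA was sequenced from 14 libraries of germ cells sorted from the testes of mice on a C57Bl6/J background, either Dnmt3C KO/KO (KO) or wild type (WT). Spermatogonia (Spg, 3 KO and 3 WT libraries) came from mice at postnatal day 14, sorted as EpCAM-positive and β2-microglobulin-negative cells, and spermatocytes (Spc, 4 KO and 4 WT) from mice older than 20 days, sorted by Hoechst DNA stain. The KO is constitutive, so that the somatic cells of the testis carry it too, and KO spermatocytes arrest in meiosis while WT ones go on. No source used here says which littermates gave which library, so p-values measure the spread between these libraries.

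Total counts lay between 40555726 and 53323651 per library, and reads on TE copies between 825841 (WT spermatocytes) and 3833925 (KO spermatocytes). Dnmt3c itself had 58 to 116 counts in KO against 53 to 89 in WT spermatogonia, and 52 to 57 against 11 to 28 in spermatocytes, so its count was not lower in KO and does not check the labels. Sorted KO and WT cells differed in cell type markers. In spermatocytes the 10 spermatocyte markers summed to 1440 to 2570 counts per 1000000 (CPM) in KO against 8950 to 10100 in WT. The sum was carried by late genes such as Ldhc, a lactate dehydrogenase of germ cells (mean 18 CPM in KO against 3520 in WT), whereas the means of Sycp1 (756 against 415), Sycp3 (570 against 369), Hormad1 (413 against 248) and Dmc1 (135 against 13.0), genes of early meiotic prophase, were higher in KO and that of Spo11, another such gene, was lower (36.2 against 93.2). In spermatogonia the spermatocyte markers summed to 801 to 1210 CPM in KO against 1240 to 3050 in WT, also without overlap. In spermatocytes the 10 spermatogonia markers summed to 502 to 1480 in KO against 55.3 to 268 in WT. The 4 Leydig markers summed to 55.4 to 270 CPM in KO against 6.98 to 17.9 in WT spermatocytes, the 3 macrophage markers to 14.1 to 74.9 and 1.11 to 2.84, the 2 peritubular markers to 9.22 to 160 and 1.32 to 5.24, with KO replicate 2 highest (Acta2 105 CPM, others 5.61 to 15.4), the 4 Sertoli markers to 36.4 to 116 and 8.5 to 37.7, and the 5 spermatid markers to 2.84 to 11.4 and 30.4 to 908. The part of these differences in the results below was not tested.

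Many short rows were not truncated insertions. Of the 24728 rows, 16703 lay on the plus strand and 8025 on the minus strand, whereas the rows of 5000 bp or more were 3893 plus and 4470 minus. Most of the excess was in 1 length class: 6863 rows had 990 bp or more, 6775 of them on the plus strand and 88 on the minus strand. Of these, 6203 (90.4%) were directly preceded on their 5′ side by another L1Md row of the same strand, with a median length of 5172 bp. Plus-strand rows of 5000 bp or more had a median length of 5399 bp and minus-strand ones 6358.5 bp. A plus-strand element was thus often listed as 2 rows, a long one and a short 3′ piece, where a minus-strand one was listed as 1.

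**Figure D1:**
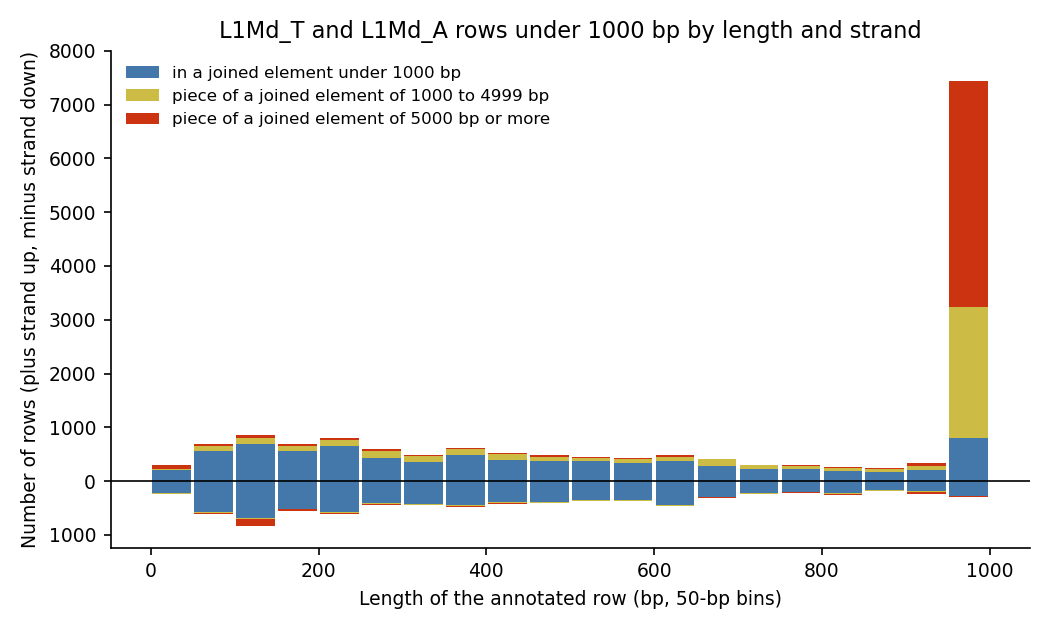
Number of short L1Md_T and L1Md_A rows (y axis) by row length in 50-bp bins (x axis), plus strand upward and minus strand downward, coloured by the length of the joined element each row belongs to. The bin from 950 bp holds most plus-strand rows of joined elements of 5000 bp or more, and the minus strand has no such peak.

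To separate the kinds, L1Md rows of 1 strand at most 10 bp apart were joined into 1 element, a division made after these data were seen. Pieces of joined elements of 5000 bp or more numbered 5133 (20.8% of the short rows, median 996 bp), and pieces of joined elements of 1000 to under 5000 bp numbered 4372 (17.7%). The other 15223 (61.6%, median 389 bp) lay in joined elements that were themselves under 1000 bp, 7897 on the plus and 7326 on the minus strand. Within these, 12422 rows stood free, with no other L1 row of that strand within 10 bp and a length under 990 bp (6197 plus, 6225 minus).

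The sequences show the split. They were read where a GENCODE transcript on GRCm38 covers a row: 297 short rows overlapped an exon, 262 of these were readable over 31 bases or more, and 208 from their first base over 60 bases or more. The first 60 bases of 5 pieces that were higher in KO spermatocytes are shown because they start at the same place. Capitals mark GGATCC, the recognition sequence of the enzyme BamHI.
L1Md_T_dup17777: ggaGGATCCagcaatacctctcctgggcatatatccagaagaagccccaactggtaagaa
L1Md_T_dup15952: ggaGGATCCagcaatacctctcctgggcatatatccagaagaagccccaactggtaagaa
L1Md_A_dup12919: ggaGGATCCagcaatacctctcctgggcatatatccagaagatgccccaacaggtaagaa
L1Md_T_dup17514: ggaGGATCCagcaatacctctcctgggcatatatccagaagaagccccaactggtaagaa
L1Md_T_dup11507: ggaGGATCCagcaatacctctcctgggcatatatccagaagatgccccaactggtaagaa

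These stretches lie on the plus strand of GRCm38 at chr12:63575389-63575448, chr10:49829796-49829855, chr12:63357585-63357644, chr12:43754299-43754358 and chr9:36676222-36676281, in the order shown. Between 58 and 60 of the 60 bases were identical to the first. The 18-base start GGAGGATCCAGCAATACC was found in 22 of 23 readable rows of 990 bp or more and in 1 of 185 shorter readable ones. It began 17 of 17 readable pieces of joined elements of 5000 bp or more, 4 of 9 of the 1000 to under 5000 bp class, 2 of 82 plus-strand rows and 0 of 100 minus-strand rows of elements under 1000 bp. Over the first 300 bases, 19 such pieces (11 L1Md_T, 8 L1Md_A) were 94.3% to 100% identical in 171 pairs, with a median of 97.7%, so that pieces of both subfamilies share nearly the same bases here.

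The join itself shows that the sequence runs on without a gap. The last 30 bases of the preceding row are in lower case and the first 30 of the short row in capitals, for 2 of the same rows, chosen to show 1 of each subfamily.
L1Md_T_dup17777 join: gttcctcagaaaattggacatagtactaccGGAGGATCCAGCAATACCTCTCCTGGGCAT
L1Md_A_dup12919 join: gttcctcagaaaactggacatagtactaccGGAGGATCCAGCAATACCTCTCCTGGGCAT

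They lie at chr12:63575359-63575418 and chr12:63357555-63357614, and the preceding rows are 5226 bp and 6398 bp long, with a gap of 0 bases at the join. The ends of a piece and of a free-standing row of 708 bp, both higher in KO spermatocytes, are shown for their A-rich tails, since an L1 ends in poly(A).
L1Md_A_dup478 end: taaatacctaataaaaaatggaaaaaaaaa
L1Md_T_dup19257 end: aaaaaaaaaaaaaaaaaaaaaaaaaaaaaa

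L1Md_A_dup478 ends at chr1:61677284-61677313 and L1Md_T_dup19257 at chr14:11904742-11904771, both on the plus strand. For contrast, L1Md_T_dup8034, a row of 715 bp in an element under 1000 bp, does not begin with the shared start. It does not stand free, since another L1 row of its strand lies within 10 bp. Its first 63 bases (chr6:57025461-57025523, plus strand) lie in the RefSeq promoter window of Vmn1r7, a vomeronasal receptor gene on the opposite strand.
L1Md_T_dup8034: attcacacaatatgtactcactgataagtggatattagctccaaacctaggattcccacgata

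In spermatogonia and spermatocytes alike, KO libraries held more reads on the short rows than WT libraries, and most of the excess was on pieces of longer elements. The 3 KO spermatogonia libraries had 51343, 45756 and 29458 reads on short rows and the 3 WT libraries 6786, 6323 and 7634. The KO spermatocyte libraries had 218451, 96796, 199149 and 235119 reads and the WT libraries ran from 3178 to 11100. The groups did not overlap in either stage. In bulk RNA, a different share of cells and a different amount of RNA per cell cannot be told apart.

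Per 1000000 reads on TE copies (RPM), short rows took 21300 ± 5780 (SD, n = 3) in KO and 5310 ± 936 (n = 3) in WT spermatogonia, a ratio of 4.0. In spermatocytes they took 52600 ± 10900 (n = 4) in KO and 5080 ± 1880 (n = 4) in WT, a ratio of 10.4. For pieces of joined elements of 5000 bp or more the ratio was 14 in spermatogonia and 26.6 in spermatocytes, and for pieces of 1000 to under 5000 bp elements 8.57 and 17.1. For rows of elements under 1000 bp it was 1.55 and 3.72. The ratio was thus smallest where no longer element was joined to the row, and KO and WT did not overlap there in either stage: KO libraries ranged from 10300 to 13900 RPM in spermatocytes and from 5410 to 7860 in spermatogonia, and WT libraries from 2650 to 4680 and from 3370 to 4940. TE-copy reads themselves rose in KO, so these ratios depend on the denominator: per total counts of a library, a scaling chosen after seeing the data, they were 5.73 and 35.4 for all short rows and 2.23 and 12.8 for rows of elements under 1000 bp in spermatogonia and spermatocytes.

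A single row moved the ratios of rows of elements under 1000 bp. L1Md_A_dup204 alone held 38.9% of the short-row reads of WT spermatogonia and 20.5% of those of WT spermatocytes, but 5.9% and 1.85% in KO. Without it, the ratios for these rows were 2.58 in spermatogonia and 4.99 in spermatocytes. Without it, too, the free-standing rows of spermatogonia ranged from 3470 to 4990 RPM (KO) and from 1710 to 1850 RPM (WT), and those of spermatocytes from 6640 to 9620 RPM (KO) and from 1600 to 2880 RPM (WT). The groups did not overlap in either stage without it.

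**Figure D2:**
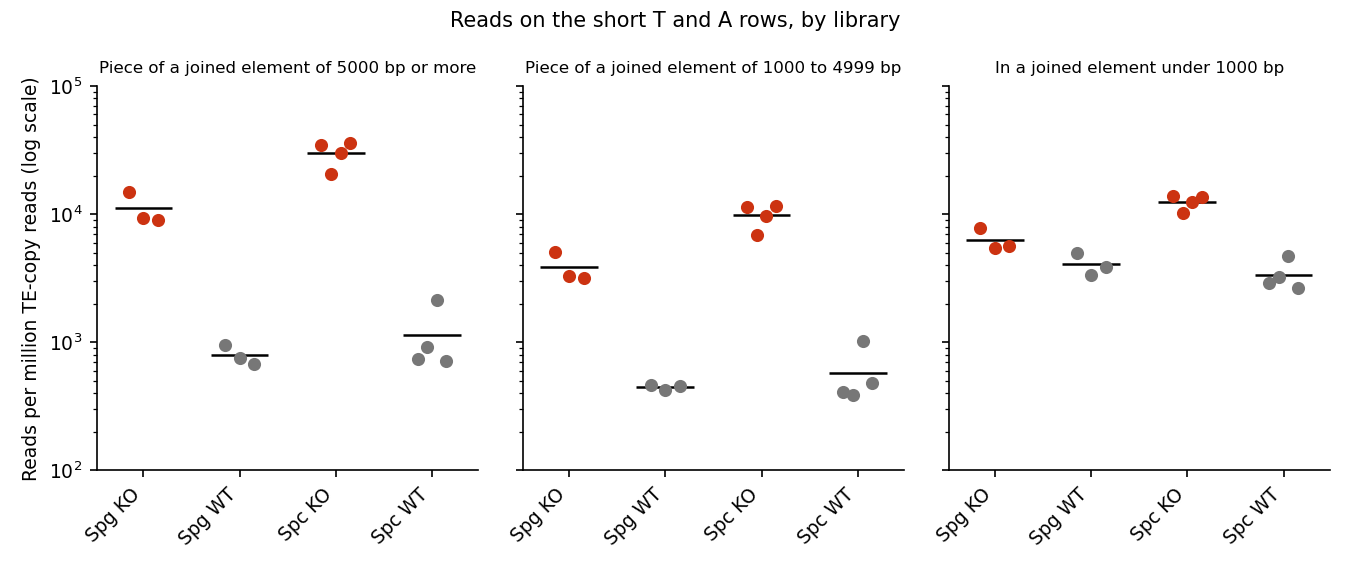
Reads per 1000000 TE-copy reads (y axis, log scale) on short L1Md_T and L1Md_A rows in each library, KO red and WT grey, with the group mean as a line, for the 3 classes of joined element. The gap between KO and WT is widest for pieces of elements of 5000 bp or more and narrowest for rows of elements under 1000 bp.

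By TPM (transcripts per 1000000, which divides reads by row length, here over TE copies alone), short rows made up 0.748 ± 0.301% of a library in KO and 0.234 ± 0.0593% in WT spermatogonia (n = 3 each). In spermatocytes they made up 2.47 ± 0.848% in KO and 0.203 ± 0.0627% in WT (n = 4 each). Of the L1Md_T and L1Md_A reads, short rows held 12.8% to 17.1% (KO) against 36.5% to 39.7% (WT) in spermatogonia, and 13.2% to 14.4% against 30.3% to 41.2% in spermatocytes. Of the L1Md_T and L1Md_A TPM they held at least 49.3% in each KO library and 77.7% to 87.3% in WT libraries. The short rows therefore weigh far more in a TPM sum than in a read count, since 1 read is worth more TPM on a shorter row.

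A single library held reads on a minority of the short rows. Over all libraries, 14012 had a read in at least 1 library and 10716 had none in any. A KO spermatocyte library had reads on 6055 to 8169 of them and a WT one on 842 to 2308, and in spermatogonia on 3819 to 4923 and 876 to 1319. More reads per library raise this number too, and the KO libraries had more TE-copy reads.

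Row by row in spermatocytes, 3671 of the 24728 short rows passed the filter (mean TPM of at least 0.5 over the 8 libraries). Of these, 1956 were higher in KO and 11 lower at an adjusted p under 0.01 (limma on log2(TPM + 0.1), two-sided, Benjamini-Hochberg over the 241893 TE copies tested). That is 53.3% higher and 0.3% lower, against 7.17% higher and 4.06% lower over all TE copies tested. A row without WT reads passed the filter only by its KO reads, so the share describes the rows that passed and not all short rows. Spermatocyte replicates 1 and 4 were the most alike of each genotype (Pearson's r of log2 reads 0.867 in KO and 0.879 in WT, other pairs at most 0.778 and 0.618). With the pair averaged the fit called 804 short rows in place of 1967. For this stage the paper's figure legend gives fewer biological replicates than there were libraries per genotype. Whether replicates 1 and 4 came from separate animals was not stated, so SDs and p-values over these libraries may rest on fewer independent samples.

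The classes differed in the same order as in the reads. They also differed in row length. The median was 996 bp for pieces of elements of 5000 bp or more, 991 bp for pieces of 1000 to under 5000 bp elements and 389 bp for rows of elements under 1000 bp. The part of length in the order of the classes was not tested. Of the tested pieces of joined elements of 5000 bp or more, 1047 of 1582 (66.2%) were higher, beside 2904 of 3621 rows of 5000 bp or more. Of the pieces of 1000 to under 5000 bp elements, 392 of 739 (53.0%) were higher. Of the rows of elements under 1000 bp, 517 were higher and 8 lower of 1350 (38.3% and 0.593%), and of the free-standing rows 404 and 7 of 1115 (36.2% and 0.628%). Short rows of the related L1Md_F, F2, F3 and Gf subfamilies had 290 higher and 75 lower of 1492, and short rows of the older Lx families 549 higher and 570 lower of 6695. Of the L1Md_T rows 1070 of 2004 were higher and of the L1Md_A rows 886 of 1667, and in spermatogonia by edgeR 448 of 1110 and 185 of 651. Free-standing rows were called higher on both strands, 183 of 534 on the plus and 221 of 581 on the minus strand.

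Fold changes of single rows were often against WT libraries without any read. Among the tested short rows, 2000 (54.5%) had no read in any WT spermatocyte library. The median fitted log2 fold change was 4.25 over tested short rows and 1.39 over all TE copies tested. With rows at 0 in 1 genotype set to their bound (3 reads in each library of that genotype, and 0 where both genotypes were within 3 reads) the medians were 2.38 and 0.0. On that bounded scale, pieces of elements of 5000 bp or more had a median of 3.08, pieces of 1000 to under 5000 bp elements 2.11, rows of elements under 1000 bp 1.4 and free-standing rows 1.32, beside 4.17 for rows of 5000 bp or more. All TE copies together shifted by the scaling: with values scaled by the TE share of counts, the median of all copies tested was 2.0 and short rows were called 2431 higher and 4 lower (all TE copies 13.7% and 2.45%). Centred on the median copy, which was at 0 TPM in 3 of 4 WT libraries, it was -1.38 and the calls were 132 higher and 42 lower (all TE copies 0.301% and 10.7%).

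**Figure D3:**
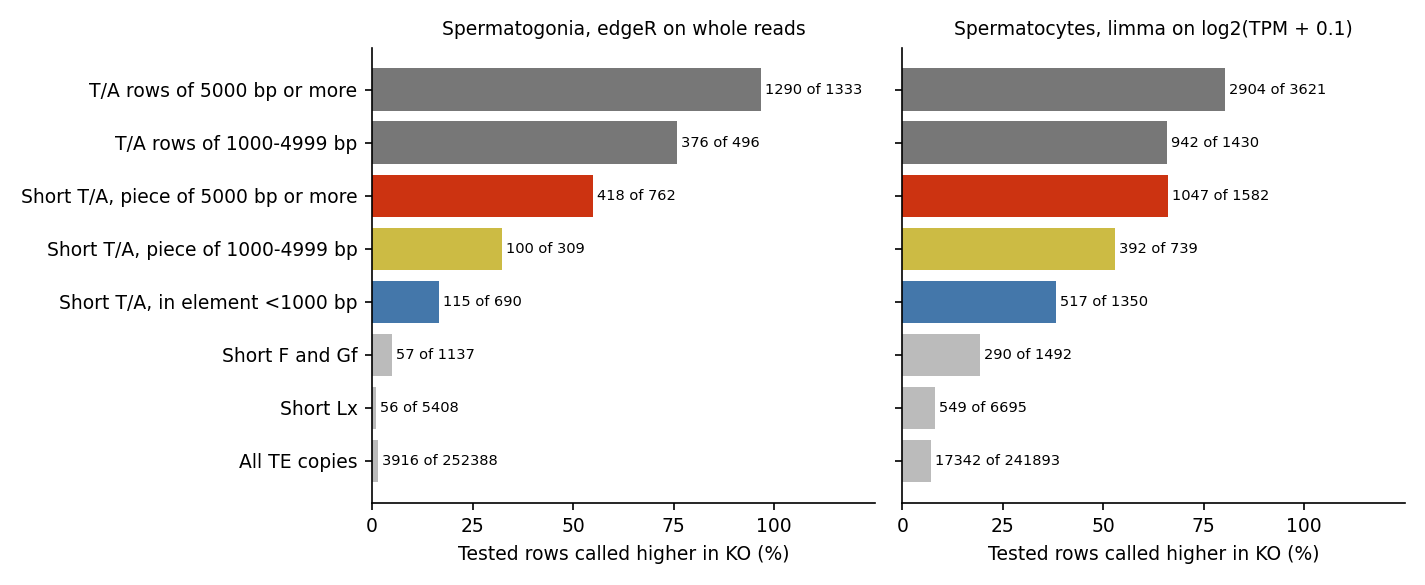
Percent of tested rows called higher in KO (x axis, adjusted p under 0.01) for all TE copies, short rows of related and older L1 families, the 3 classes of short L1Md_T and L1Md_A rows and longer rows of both subfamilies (y axis), in spermatogonia with edgeR on whole reads (left) and in spermatocytes with limma (right); the numbers are rows called of rows tested. In both stages rows of elements under 1000 bp lie below pieces of longer elements and above short rows of other L1 families.

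In spermatocytes, 3386 of the 24728 short rows had more TPM in each KO library than in each WT library and 30 had less. Among the tested rows 2605 (71.0%) did not overlap and were higher in KO, against 12.7% of all TE copies tested, and 28 were lower, against 6.43%. By edgeR on the whole reads behind the TPM values, 2694 short rows were higher and 32 lower, where 6.72% and 5.39% of all TE copies were, and DESeq2 called 2418 higher and 23 lower (all TE copies 5.93% and 4.76%).

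In spermatogonia, 0 of 1761 tested short rows were called by limma, where 0.00872% (higher) and 0.000396% (lower) of all 252388 TE copies tested were, with 760 short rows (43.2%) at an unadjusted p under 0.05, against 5.31% of all TE copies. With 3 libraries per genotype this test called 23 TE copies in all, so that the count of 0 says little. By edgeR on whole reads, 633 short rows were higher and 1 was lower, where 1.55% and 0.204% of all TE copies were, and DESeq2 called 626 higher and 0 lower (all TE copies 1.5% and 0.144%). By edgeR the higher rows were 418 of 762 pieces of elements of 5000 bp or more, 100 of 309 pieces of 1000 to under 5000 bp elements and 115 of 690 rows of elements under 1000 bp, of which 82 stood free (of 596 tested). Rows of 5000 bp or more were higher in 1290 of 1333. The groups of libraries did not overlap, with KO higher, for 1670 of the 24728 short rows, among them 1090 of those tested (61.9%, against 5.36% of all TE copies), and with KO lower for 27, of which 21 were tested (3.23% of all TE copies were lower). Of the tested short rows, 959 (54.5%) had no read in any WT library, against 14.3% of all TE copies tested. Such rows passed the filter only by their KO reads, so these shares describe the rows that passed.

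Between the stages, 0 of 3023 tested short rows differed in their KO effect by limma, where 0.00237% and 0.00119% of all TE copies tested did, with 601 (19.9%) at an unadjusted p under 0.05, against 16% of all TE copies. By edgeR 3 had a larger KO effect in spermatocytes and 1 a smaller one, where 0.0289% and 0.0495% of all TE copies did, and DESeq2 called 14 larger and 2 smaller (all TE copies 0.191% and 0.157%). In 1450 of the 24728 rows (5.86%, against 0.332% of all TE copies without a filter) the genotypes did not overlap and KO was higher in both stages, and in 0 rows KO was higher without overlap in spermatogonia and lower in spermatocytes. The 4 edgeR calls were L1Md_T_dup16073, L1Md_A_dup4496, L1Md_T_dup9481 and L1Md_T_dup6621, chosen by this test alone. L1Md_A_dup4496, a free-standing row of 791 bp outside genes (chr5:42933500-42934290, minus strand), had 53, 46 and 26 reads in KO against 0, 9 and 5 in WT spermatogonia. In spermatocytes it had 460, 171, 314 and 428 reads in KO and 0 in each WT library, at least 32.5-fold higher per TE-copy read against 3 reads in each WT library. The size of its stage difference depends on the prior count, since WT spermatocytes had no read (edgeR adjusted p = 0.00734, limma 0.115).

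Length went with the share of calls. In spermatocytes 1 of 80 tested short rows under 100 bp was higher (1.25%), 26.1% of those of 100 to under 200 bp, 38.6% of those of 200 to under 500 bp and 59.4% of those of 500 bp or more. The order was the same for rows of elements under 1000 bp, at 1.37%, 18.4%, 33.2% and 47.3%. At the same RNA level a longer row collects more reads, and the part of read number in this order was not tested.

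Place in a gene went with the calls as well. Among the rows of elements under 1000 bp, 362 of 831 tested rows outside genes (43.6%) and 87 of 201 antisense in an intron (43.3%) were higher in KO spermatocytes, but 65 of 301 in sense in an intron (21.6%) and 3 of 17 that overlap an exon (17.6%). Their median log2 fold changes at the bound were 1.6, 1.38 and 0.99 in spermatocytes and 0.99, 0.86 and 0.0 in spermatogonia. Rows in sense in an intron more often had WT reads: 100 of 301 had none in WT spermatocytes, beside 472 of 831 outside genes. Counting was strand-specific, but unspliced RNA of the gene and other RNA of the row cannot be told apart for rows in sense in an intron.

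**Figure D4:**
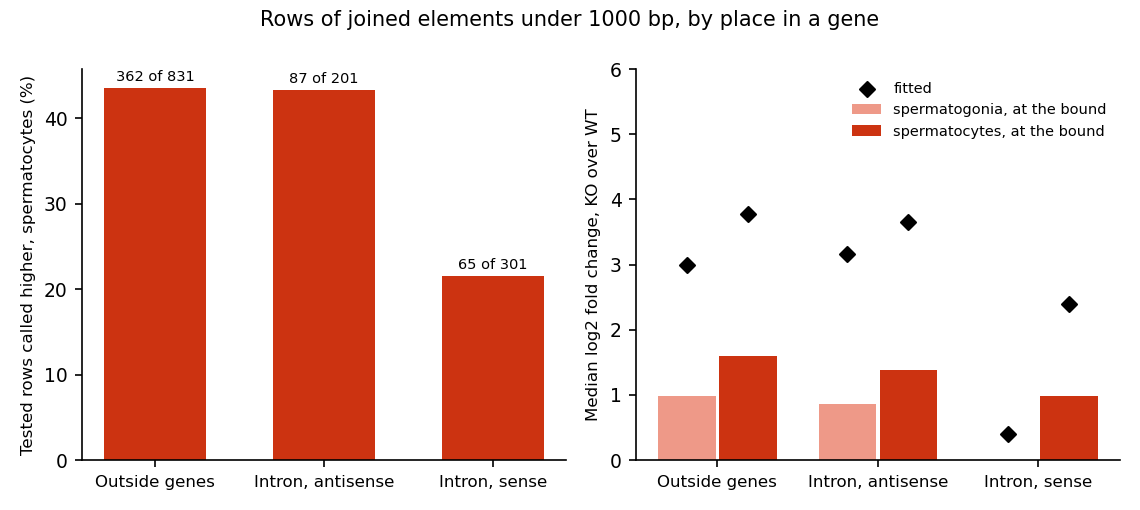
Rows of joined elements under 1000 bp by their place in a gene (x axis): left, percent of tested rows called higher in KO spermatocytes (y axis), with the number called of the number tested, and right, the median log2 fold change of KO over WT (y axis) with rows at 0 in 1 genotype set to their bound (bars, by stage) and as fitted (diamonds). Of the 3 places plotted, rows in sense in an intron are lowest in each measure.

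Distance to a long row also went with the calls. Of the rows of elements under 1000 bp, 27 of 45 within 1 kb of an L1Md_T or L1Md_A row of 5000 bp or more were higher in spermatocytes, 69 of 150 at 1 to 10 kb and 421 of 1155 (36.5%) farther away. Most tested rows of this class lay more than 10 kb from a long row, and 36.5% of those were called. Reads that fit several copies were shared among them at any distance. RNA of these rows and RNA of distant longer copies therefore cannot be told apart by distance.

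Pieces of elements of 5000 bp or more were set beside the row they abut. Of 4534 such pairs, 687 in KO spermatocytes and 1506 in KO spermatogonia had reads on the neighbour and none on the piece, and 38 and 104 on the piece alone. Where both had reads, the piece's KO TPM was 0.803 times that of its neighbour in the median over 3583 pairs with reads on both in spermatocytes and 1.14 times over 2489 pairs in spermatogonia, with Spearman's rho of 0.55 and 0.48 across pairs, which share libraries and near-identical sequence. Reads that fit several copies were shared among them, so a piece and its neighbour are not independent.

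Of the rows called higher in KO spermatocytes without overlap, the one with most KO reads was L1Md_T_dup6565 (chr5:22729809-22730255, plus strand, 447 bp), the first of 2 rows of a joined element of 1467 bp in an intron of 6030443J06Rik, in sense. It had 588, 217, 444 and 669 TPM in KO and 2.3, 2.07, 32.2 and 9.13 in WT spermatocytes. In spermatogonia it had 181, 98.0 and 80.1 in KO and 23.9, 5.43 and 8.99 in WT. KO and WT did not overlap in either stage, and WT replicate 3 was the highest of its group in spermatocytes. The log2 fold change was 6.14 ± 0.8 (SE) in spermatocytes (limma, adjusted p = 0.00063), and in spermatogonia 3.4 ± 0.53 (limma adjusted p = 0.031, edgeR adjusted p = 6.94e-08).

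Most leading rows were 3′ pieces of 994 to 998 bp. L1Md_T_dup6559 (998 bp, chr5:22461874-22462871), outside genes, abuts a row of 5584 bp and had 168, 60.5, 102 and 175 TPM in KO and 1.65, 0.37, 12.4 and 1.92 in WT spermatocytes, a log2 fold change of 5.76 ± 0.9 (limma, adjusted p = 0.00143). L1Md_T_dup21734 (996 bp, chr16:72629525-72630520) lies in an intron of Robo1, a receptor for SLIT guidance proteins, in sense. It had 143, 24.3, 102 and 135 TPM in KO and 1.03, 0.371, 0.413 and 0.0 in WT spermatocytes. KO replicate 2 was the lowest of its group in both, yet above each WT library. L1Md_T_dup13410 (996 bp, chrX:96398419-96399414), antisense in an intron of Hsf3, a heat shock factor gene, had 113, 40.2, 77.2 and 124 TPM in KO spermatocytes, while the WT libraries ranged from 0.186 to 1.38, for a log2 fold change of 7.09 ± 0.72 (limma, adjusted p = 0.000211). It follows a row of 4384 bp, but the joining placed both in a run of 10 rows and 20784 bp, and the piece is not at the 3′ end of that run.

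Among the pieces with the largest fitted rises, L1Md_T_dup267 (996 bp, chr1:25668296-25669291) is antisense in an intron of Adgrb3, an adhesion G protein-coupled receptor of neurons, and abuts a row of 6240 bp. It had 71.9, 32.1, 62.7 and 87.4 TPM in KO and 0 reads in each WT spermatocyte library, at least 60-fold higher (limma adjusted p = 7.12e-05). In spermatogonia it had 34.0, 16.2 and 11.6 TPM in KO and 0.51, 0.0 and 0.327 in WT. L1Md_A_dup16434 (994 bp, on chromosome 18), a piece of a joined element of 7270 bp outside genes, had 823, 379, 575 and 864 reads in KO and 1 read in the 4 WT spermatocyte libraries together. Its ratio of reads per TE-copy read was 799 (95% exact interval 143 to 31600, for counting error only; limma adjusted p = 0.000103). The 2 other pieces, L1Md_T_dup6738 (998 bp) and L1Md_T_dup13540 (996 bp), had KO means of 95 ± 34.9 and 69.2 ± 27.5 TPM (n = 4) and WT means of 5.51 ± 9.06 and 1.27 ± 2.55 in spermatocytes, with most of the WT value in replicate 3.

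L1Md_T_dup16073 (995 bp, chr10:57400781-57401775, plus strand) had the length of a 3′ piece but no L1Md row beside it. It lies outside genes and 66781 bp from the nearest row of 5000 bp or more. It had 95, 37.2, 77.1 and 108 TPM in KO and 0.0, 0.0, 0.552 and 0.0 in WT spermatocytes, a log2 fold change of 8.85 ± 0.86 (limma, adjusted p = 0.000178). In spermatogonia it had 9.06, 10.2 and 6.21 TPM in KO against 0.851, 1.71 and 2.07 in WT, for a log2 fold change of 2.44 ± 1.15 (limma adjusted p = 0.784, edgeR adjusted p = 0.0176). KO was higher without overlap in both stages, and the KO effect was larger in spermatocytes by edgeR, by 6.25 on the log2 scale (adjusted p = 0.0027; limma 6.41, adjusted p = 0.0388).

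Both L1Md_A_dup1796 and L1Md_A_dup3719, free-standing rows far shorter than a piece, were among the largest fitted rises. For rows without WT reads this rank depends on the pseudocount and the row length, and only the bounds below measure the rise. L1Md_A_dup1796 (271 bp, chr2:97885474-97885744, minus strand) lies outside genes, 9481 bp from the nearest row of 5000 bp or more. It had 60.2, 33.8, 53.2 and 80.6 TPM in KO and 0 reads in each WT spermatocyte library, and 11.4, 8.94 and 9.98 TPM in KO and 0 reads in each WT spermatogonia library. Its genotypes did not overlap in either stage, with KO higher by at least 14.7-fold in spermatocytes (limma adjusted p = 7.17e-05) and at least 5.12-fold in spermatogonia (limma adjusted p = 0.304, edgeR adjusted p = 5.43e-05). L1Md_A_dup3719 (175 bp, chr4:49406967-49407141, minus strand) lies in sense in an intron of Acnat2, an acyl-CoA:amino acid N-acyltransferase gene. It had 93.3, 15, 57.0 and 138 TPM in KO and 0 reads in each WT spermatocyte library, at least 11.9-fold higher (limma adjusted p = 0.000151). In spermatogonia its reads were few, 9, 7 and 3 in KO and 0, 0 and 3 in WT, a ratio of 4.17 per TE-copy read (95% exact interval 1.23 to 22.0).

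Of the 11 rows that were lower in KO spermatocytes, the 4 with the largest fitted falls stood free and lay 382824 bp or more from a row of 5000 bp or more. L1Md_T_dup9569 (547 bp, chr7:69874676-69875222, minus strand), outside genes, had 177, 336, 367 and 170 reads in WT and 0, 0, 0 and 1 in KO spermatocytes. In spermatogonia it had 8, 81 and 2 reads in WT and 0 in each KO library. The WT library with 81 reads, replicate 2, also had the highest summed spermatocyte markers of its group (3050 CPM, lowest 1240). The part of that in these reads was not tested. WT was higher without overlap in both stages, at a ratio of 3470 per TE-copy read in spermatocytes (95% exact interval 621 to 137000; limma adjusted p = 6.94e-05) and at least 14.5-fold in spermatogonia, where WT replicate 2 held most of the reads and the bound without it was 2.86-fold (edgeR adjusted p = 4.81e-07, DESeq2 0.0329, limma 0.784).

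L1Md_T_dup9573 (369 bp, chr7:69918594-69918962), on the other strand of the same region, had 16, 7, 11 and 13 reads in WT and 0, 0, 0 and 1 in KO spermatocytes (limma adjusted p = 0.00176). L1Md_T_dup6621 (975 bp, chr5:30936155-30937129) is antisense in an intron of Cgref1, a gene of cell growth control. It had 44, 68, 85 and 35 reads in WT and 9, 0, 2 and 0 in KO spermatocytes, a log2 fold change of -5.51 ± 0.95 (limma, adjusted p = 0.00238), and at most 6 reads in any spermatogonia library. L1Md_T_dup21047 (393 bp, chr15:91601615-91602007), in sense in an intron of 4933438A12Rik, had 9, 10, 8 and 7 reads in WT and 0 in each KO spermatocyte library and none in spermatogonia. The fall was at least 9.42-fold (limma adjusted p = 0.000936). In the same libraries the summed spermatocyte markers were lower in KO (1440 to 2570 and 8950 to 10100 CPM), with members that went both ways, and the part of that difference was not tested.

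**Figure D5:**
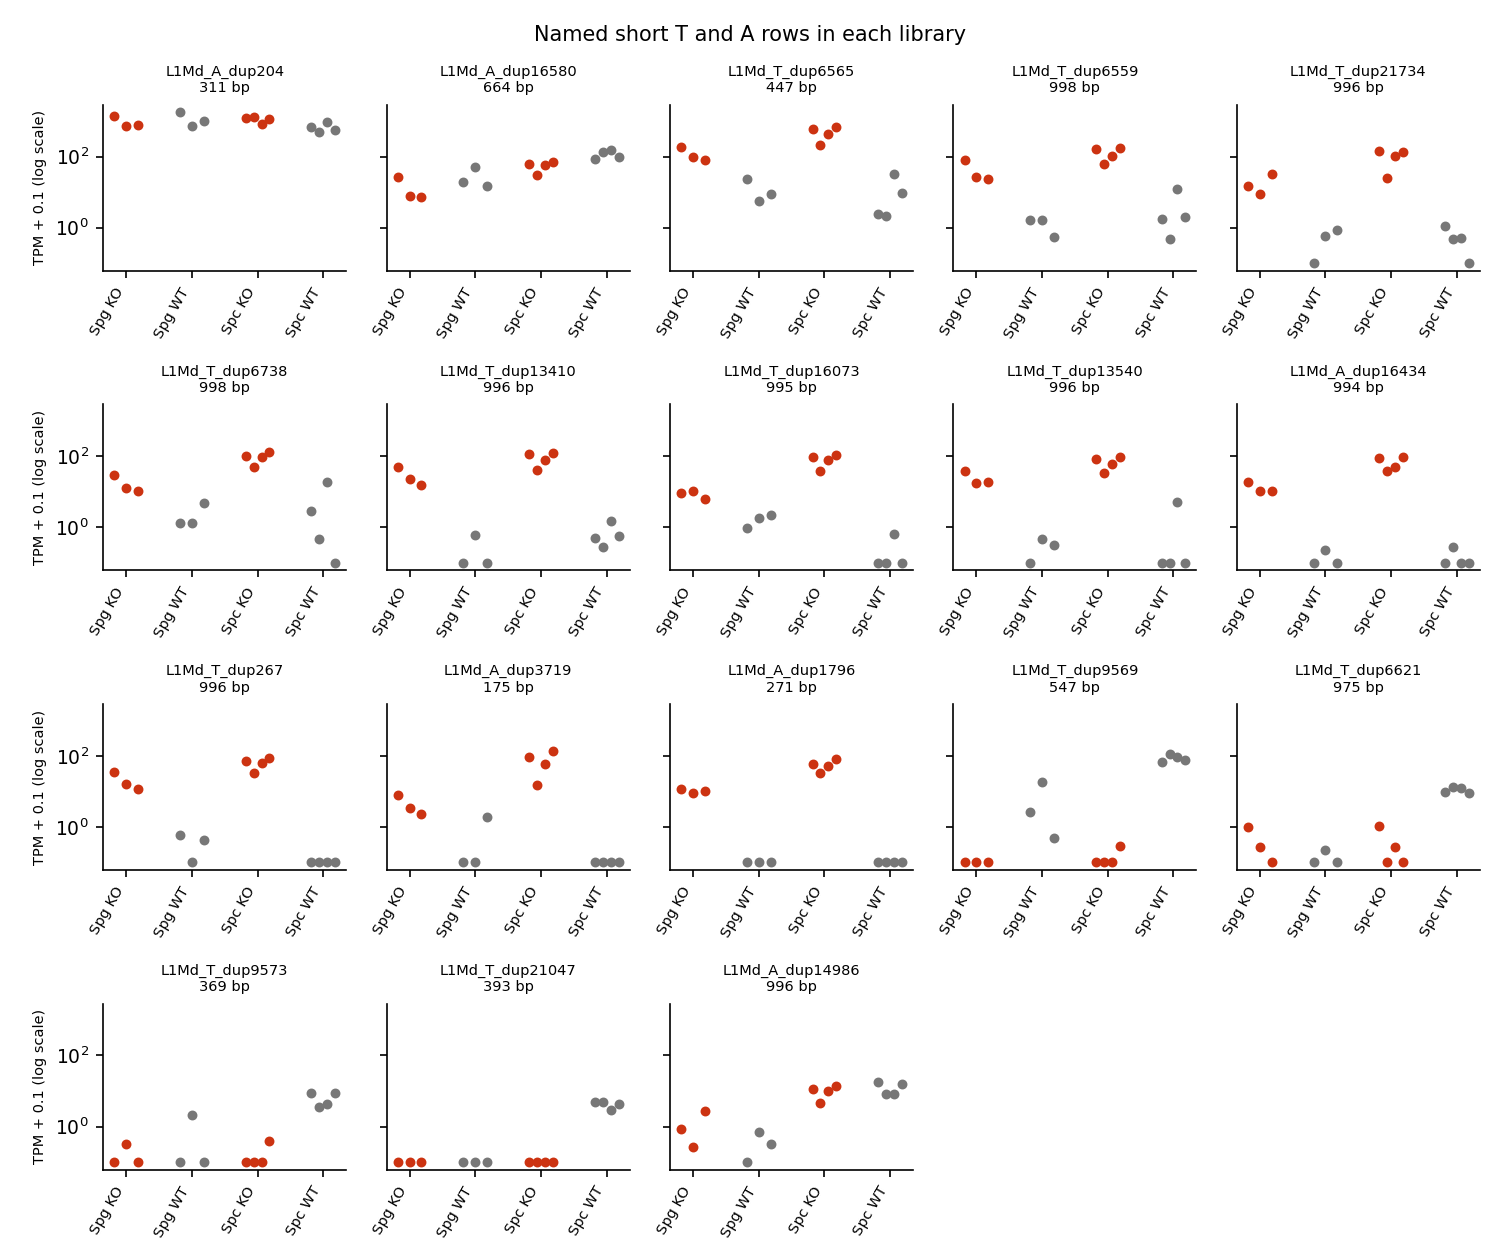
TPM plus 0.1 (y axis, log scale) in each library for the rows named in spermatocytes by reads, rise or fall, KO red and WT grey, with the row's length above each panel. The 11 rising rows lie above WT in each KO spermatocyte library, the 4 falling rows below, and L1Md_A_dup204, L1Md_A_dup16580 and L1Md_A_dup14986 have WT spermatocyte TPM values that overlap with KO or, for L1Md_A_dup16580, lie above them.

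The rows with most WT reads went both ways. L1Md_A_dup204 (311 bp, chr1:24611227-24611537, minus strand) had 1370, 723 and 780 TPM in KO against 1760, 733 and 1030 in WT spermatogonia, overlapping between genotypes. In spermatocytes it had 1190, 1320, 808 and 1150 in KO and 680, 506, 910 and 556 in WT. The log2 fold change was -0.26 ± 0.24 in spermatogonia (limma adjusted p = 0.784) and 0.77 ± 0.2 in spermatocytes (adjusted p = 0.0216), neither past the threshold. The row overlaps Gm28439 by 3 bp and lies next to 6 further pseudogenes of its strand (Gm10222, Gm28438, Gm28437, Gm10925, Gm28661 and Gm29216). Of the 31-base words of these 7 transcripts, 97.2% to 100% were found in mitochondrial transcripts (846 of 846 of Gm28439 in mt-Nd4). The part of mitochondrial RNA in the reads of this row was not tested.

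Of the other rows with most WT reads, L1Md_T_dup9569 and L1Md_A_dup14986 lie outside genes and the rest in introns. L1Md_A_dup16580 (664 bp, chr19:3382949-3383612), antisense in Cpt1a, a carnitine palmitoyltransferase gene of fatty acid oxidation, had 60.9, 29.4, 58.3 and 68.8 TPM in KO and 86.0, 133, 150 and 95.8 in WT spermatocytes. WT was higher without overlap, but not past the threshold (log2 fold change -1.13 ± 0.35, limma adjusted p = 0.0478). L1Md_T_dup23610 (416 bp, chr19:53642676-53643091), in sense in Smc3, a cohesin subunit gene, had 43.3, 41.2 and 36.2 TPM in KO and 52.9, 25.6 and 29 in WT spermatogonia, overlapping. In spermatocytes it had 23.2, 41.4, 33.6 and 22.6 in KO and 0.991, 4.89, 10.9 and 1.73 in WT (edgeR adjusted p = 0.00271, limma 0.0148). L1Md_T_dup21869 (662 bp, chr16:84719093-84719754), in sense in Mrpl39, a mitochondrial ribosome subunit gene, had 39.3, 14.5 and 23.1 TPM in KO and 24.8, 12.6 and 17.7 in WT spermatogonia (limma adjusted p = 0.844), and 30, 23.3, 32.1 and 41.6 in KO against 8.4, 14.8, 19.5 and 7.98 in WT spermatocytes, higher in KO without overlap but not past the threshold (limma adjusted p = 0.0687). L1Md_A_dup14986 (996 bp), a piece of a joined element of 3483 bp outside genes, had 9.77 ± 3.89 TPM in KO and 12.6 ± 5.22 in WT spermatocytes (n = 4 each, limma adjusted p = 0.655).

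Beside the length limit, the longest short rows were L1Md_T_dup189 and L1Md_T_dup718, both 1 bp under it and both pieces of longer joined elements. L1Md_T_dup189 had 7, 5, 4 and 20 reads in KO and 0 in each WT spermatocyte library, and L1Md_T_dup718 had 1 read in the spermatocyte libraries. Just outside, at 1000 bp, L1Md_T_dup15765 had 183, 85, 188 and 204 reads in KO and 0 in each WT spermatocyte library, and L1Md_A_dup12344 had 10, 1, 17 and 15 in KO and 0 in WT. Rows up to 9 bp past the limit were 179 on the plus and 8 on the minus strand, so the split of plus-strand elements goes on past the limit.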

How the data were processed

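RNA from 14 libraries was analysed. Per the study's methods, the authors aligned reads to GRCm38 with STAR 2.7.3a (up to 100 alignments per read), counted them strand-specifically with TEtranscripts and TElocal, and shared multi-mapping reads between the copies they fit. The deposited copy tables hold TPM per TE copy, made by the authors from TElocal counts, so that the TE copies of each library add up to 1000000. The deposited raw counts per gene and TE subfamily gave total depth and markers. The authors' fold changes and p-values in those tables were not used. No column was left without a sample (0 columns). One further spermatogonia library per genotype, left out by the authors for RNA quality, was not analysed here.

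TPM times row length came to whole multiples of 1 read in 100.0% of values above 0 (tolerance 0.001), and these reads were used for counts, edgeR 4.0.16 and DESeq2 1.42.0. The main test was limma 3.58.1 in R 4.3.3 (trend, log2(TPM + 0.1)) on copies whose TPM averaged 0.5 or more, per stage and for the stage difference over 14 libraries, two-sided with Benjamini-Hochberg adjustment, called under 0.01. This test makes few calls with 3 libraries per group, so edgeR counts are given beside it. Within each stage limma and edgeR were also run on simulated reads, whereas DESeq2 and the stage difference were not. Copies were annotated with GENCODE on GRCm38. Tables used Python 3.11.15, pandas 2.3.3 and NumPy 2.4.6, and plots matplotlib 3.10.9.

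Members, lists and tests were chosen with earlier results of these data known, and the joined elements, the free-standing class, the shared start and the rows of the stage difference after seeing them. Rows named were, per stage, of called rows without overlap between genotypes the 8 with most KO reads and the 4 that rose most or fell most on the log2 scale, then the 4 with most WT reads, and the rows beside the length limit. No row was named in spermatogonia by a call. Which part of the element a row holds, by alignment to an intact copy, and the 31-base words it shares with long copies were not analysed here. Intervals and floors (3 reads in each library) cover counting error only. Alternatives were other pseudocounts, filters, thresholds, scalings and tools, a replicate block, averaging of replicates 1 and 4, a length limit of 500 bp and each library left out.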

Additional observations from a re-analysis of the deposited data

Results flagged for a closer look

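Of 68 sets of 4 spermatocyte libraries examined, 19 had a highest or lowest library standing apart by Dixon's test. The sets share rows and reads, and a row with reads in a single library stands apart by construction. The count therefore cannot be set against a chance rate. Most involve WT replicate 3 or KO replicate 2. WT replicate 3 was highest for all short rows in TPM share (0.297%, others 0.162% to 0.179%) and in rows with a read (2308, others 842 to 1052). For pieces of elements of 5000 bp or more it had 2150 reads per 1000000 TE-copy reads (others 719 to 918), 0.043% of TPM (others 0.0149% to 0.0179%) and 825 rows with a read (others 255 to 347). For pieces of 1000 to under 5000 bp elements it had 1030 reads per 1000000 (others 390 to 481) and 441 rows with a read (others 142 to 171). It was also highest in TPM for L1Md_T_dup6559 (12.4), L1Md_T_dup6738 (19.0), L1Md_T_dup16073 (0.552) and L1Md_T_dup13540 (5.1). WT replicate 3 also had the highest summed spermatid markers (908 CPM, lowest 30.4) and spermatogonia markers (268, lowest 55.3) of its group. Their part was not tested.

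KO replicate 2 had the fewest rows with a read among KO spermatocytes: 6055 of all short rows (others 8030 to 8169), 2342 pieces of elements of 5000 bp or more (others 2993 to 3013), 1313 pieces of 1000 to under 5000 bp elements (others 1779 to 1803) and 2400 rows of elements under 1000 bp (others 3255 to 3392). It also had the fewest TE-copy reads of its group. The other 4 rest on 1 read in a single library: L1Md_A_dup16434 in WT replicate 2 (0.186 TPM), L1Md_T_dup9569 and L1Md_T_dup9573 in KO replicate 4 (0.196 and 0.29 TPM) and L1Md_T_dup718 in KO replicate 1 (0.104 TPM).

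In 3 rows KO lay below WT by TPM in each spermatogonia library and above WT in each spermatocyte library, all of joined elements under 1000 bp. L1Md_T_dup7412 (652 bp, intron of Rnf212, a gene of meiotic crossing over) had a KO mean of 2.89 and a WT mean of 4.61 TPM in spermatogonia, and 5.62 and 0.726 in spermatocytes. L1Md_T_dup16738 (691 bp, intron of Peli1) had 0.431 and 1.68 TPM in spermatogonia and 0.909 and 0.0 in spermatocytes, and L1Md_A_dup15031 (79 bp, exon of Tubgcp6) 0.0 and 5.0, then 4.12 and 0.434. Reads were few. The highest KO and lowest WT spermatogonia libraries had 18 and 16 reads for L1Md_T_dup7412 and 5 and 4 for L1Md_T_dup16738, so there the order held in TPM and not in reads. For L1Md_A_dup15031 they had 0 and 2. L1Md_T_dup16738 had 4 to 10 reads in KO spermatocytes, within the floor. By limma the stage difference had adjusted p-values of 0.192, 0.0827 and 0.0262, and by edgeR 0.261, 0.139 and 0.299. The named rows L1Md_T_dup16073 and L1Md_T_dup6621 differed between stages by edgeR, the first by 6.25 (adjusted p = 0.0027) and the second by -7.79 (adjusted p = 0.00362) on the log2 scale, sizes that depend on the prior count since 1 group of each has few reads, and limma gave 0.0388 and 0.0601.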

How the results depend on the processing

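In spermatocytes the count of 1967 called short rows moved to 1302 with a mean TPM of at least 2, 174 centred on the median copy, 772 with the replicate block, 804 with replicates 1 and 4 averaged and 296 for rows under 500 bp. Rows of elements under 1000 bp (525) moved to 329, 67, 180 and 196 under the first 4 and to 340 with a pseudocount of 1, and free-standing rows (411) to 261, 60, 141, 154 and 271, settings of classes chosen after seeing the data. Leaving out 1 library gave 1301 to 2414, 346 to 664 and 275 to 523. In spermatogonia the 0 calls became 1 at an adjusted p under 0.05, 2 with a pseudocount of 1, 1 without a filter, 1 scaled by the TE share, 634 by edgeR and 626 by DESeq2 (elements under 1000 bp 116 and 111, free-standing 83 and 77), and stayed 0 to 0 with 1 library left out. The stage difference (0) became 4 at an adjusted p under 0.05, 4 by edgeR and 16 by DESeq2, and 0 to 2 with 1 library left out (2 without WT spermatocyte replicate 3). The cause of these changes was not tested, except that centring used a median copy at 0 TPM.

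As reads in place of TPM the shares of KO and WT were 2.13% and 0.531% in spermatogonia and 5.26% and 0.508% in spermatocytes, and with 1 library left out the TPM shares ran from 0.574% to 0.836%, 0.201% to 0.257%, 2.21% to 2.84% and 0.172% to 0.217%. Per total counts in place of TE-copy reads, a choice made after seeing the data, the KO to WT ratios of reads in spermatogonia and spermatocytes were 5.73 and 35.4 for all short rows, 19.9 and 87.8 for pieces of elements of 5000 bp or more, 12 and 57.4 for pieces of 1000 to under 5000 bp elements and 2.23 and 12.8 for rows of elements under 1000 bp. Without L1Md_A_dup204, chosen likewise, they were 6.25 and 12.8 for all short rows and 2.58 and 4.99 for rows of elements under 1000 bp. Same-numbered KO and WT libraries correlated in their deviations by 0.01 to 0.075 in spermatogonia and 0.015 to 0.038 in spermatocytes. Pairs with unlike numbers ranged from -0.092 to 0.056 and from -0.025 to 0.015. Correlations this low cannot tell whether the replicate numbers pair the samples. The block left spermatogonia and the stage difference at 0 calls. Of the fold changes of named rows, 549 kept direction and side of the threshold under an alternative, 33 gained and 23 lost a call and 8 reversed. The 23 losses were in spermatocytes, in the 15 named rows called there. Among them were 5 with replicates 1 and 4 averaged, 4 with the replicate block, 7 with 1 library left out and 2 centred. The reversed were rows with many WT reads that limma did not call. L1Md_A_dup204 went to 0.24 in spermatogonia scaled by the TE share and 0.08 without WT spermatogonia replicate 1, and to -2.0 centred in spermatocytes. L1Md_A_dup16580 went to 0.71 and L1Md_A_dup14986 to 1.43 in spermatocytes scaled by the TE share, and centred L1Md_T_dup23610 went to -0.74 and L1Md_T_dup21869 to -0.56 in spermatogonia and to -1.38 in spermatocytes. Reads limit what can be said of the 10716 short rows without one.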
